A study of Mus musculus with 24 samples.

Results

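MiR-652 is a microRNA (miRNA) hairpin whose 5p and 3p arms each have probes on the array, and the arms were followed across all 8 groups of a liver storage and RNA degradation experiment. The members were mmu-miR-652-5p and mmu-miR-652-3p, 2 of the 631 miRNAs kept after a detection filter, beside 1250 array miRNAs that were not kept, and they were selected on how they behaved in storage, in depletion of small RNAs and in RNase treatment of these same samples. Values in those comparisons are therefore given as a description with no test. Livers of 3 male mice, numbered 7, 9 and 10, were each divided, and every mouse gave 8 arrays, 1 in each group.

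RNA with small RNAs was isolated with the miRNeasy Kit from liver placed in a stabilizer at 0 h or kept at room temperature for 96 h, each with DNase digestion or without it. RNA depleted of small RNAs was isolated with the RNeasy Kit and DNase digestion from 0 h liver only, a procedure that reduces small RNAs without removing all of them. This depleted RNA was hybridized untreated or after incubation with 0 U, 0.026 U or 0.67 U RNase and renewed isolation. Treated RNA thus differed from untreated depleted RNA in the incubation and the second isolation as well as in the enzyme, and the 0 U arrays carried both of those steps. The strain of these mice was not given for this experiment, and bulk tissue cannot tell fewer cells of a type from less RNA per cell.

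A miRNA hairpin is cut by Drosha and Dicer into a short duplex. Usually a single arm of the duplex stays bound to an Argonaute protein, which it guides to target mRNAs through its seed, bases 2 to 8, and the other arm is mostly lost. For miR-652 the 3p arm is the product commonly measured in tissues and in blood. A hybridization array has no such knowledge of processing, since any labelled RNA that pairs with a probe gives a signal under the name of that miRNA.

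Both mature sequences and the hairpin are shown because the arms come from the same transcript and are set beside each other in the comparisons that follow. They are from RefSeq, 5′ to 3′, on build GRCm38.p6, while the headers of the array design name mm9, so positions were not carried over to the probes. In the mature sequences capitals mark the seed, and in the hairpin they mark the arms.
mmu-miR-652-5p: cAACCCUAggagggggugccauuc
mmu-miR-652-3p: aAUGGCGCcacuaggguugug
Mir652 hairpin: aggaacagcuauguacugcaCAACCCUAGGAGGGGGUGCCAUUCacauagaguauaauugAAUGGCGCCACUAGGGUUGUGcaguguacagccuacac

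The Mir652 hairpin of 98 bases lies on the plus strand at chrX:142739000-142739097, within the span of the protein-coding gene Tmem164. The 5p arm takes 24 bases at chrX:142739020-142739043 and the 3p arm 21 bases at chrX:142739060-142739080. RNAfold gave a hairpin of 34 base pairs with a minimum free energy of -49.0 kcal/mol, in which 18 bases of the 5p arm paired with the 3p arm. The arms were thus close to complementary, but the 5p arm holds a run of 5 G, and the longest run of G in the 3p arm is 3. Of the array miRNAs 1608 matched a RefSeq mature sequence by name, and no other miRNA among them shared the seed of either arm. The longest stretch shared with another array miRNA was 10 bases for the 5p arm, with mmu-miR-3085-5p, and 9 bases for the 3p arm, with mmu-miR-7017-5p.

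Each arm was read by 2 probes with 15 spots each. The signal is background-subtracted fluorescence summed over the probes of a miRNA by the scanner software, in intensity units, and detection is the software's flag. Changes between groups are given as glog2, a log2-like scale after variance stabilizing normalization (vsn) on which a difference of 1 corresponds to a 2-fold change for bright miRNAs and to more than that for dim ones. The 5p arm was detected on 18 of 24 arrays and the 3p arm on 22 of 24. No spot of any array was saturated.

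Quality and depth differed strongly between groups. The RNA integrity number (RIN), which falls as RNA is fragmented, was 8.8 to 9.0 at 0 h and 2.3 to 2.5 at 96 h in RNA with small RNAs. In depleted RNA it was 9.0 to 9.4 without enzyme, 6.0 to 7.0 at 0.026 U and 2.4 to 2.9 at 0.67 U. The total signal of detected miRNAs was 55237 to 163493 units at 0 h, 187378 to 362324 at 96 h, 7125 to 10043 in depleted RNA without enzyme and 36325 to 177642 with RNase. All 4 hepatocyte marker miRNAs (mmu-miR-122-5p and others) were detected on every array with small RNAs, and the 3 neuron markers were detected on none in any group. The 3 muscle markers were detected on no 0 h and no depleted array (summed signal 0.212 to 2.03 units), but at 96 h 1 of them was detected on all arrays with DNase and 2 on all arrays without it (10.3 to 33.5 units), and mmu-miR-1a-3p on none. The 4 blood markers summed to 264 to 731 units at 0 h, 164 to 240 at 96 h and 5.93 to 16.4 in depleted RNA, where mmu-miR-144-3p and mmu-miR-142a-3p were detected on no array. The 2 endothelial markers summed to 289 to 604, 55.7 to 131 and 15.5 to 44.6 units in the same sets. The part of these markers in the miR-652 values was not tested. For mouse 9 the labels disagree on which RNase array received which dose. Its arrays were assigned by their descriptions, under which their RIN is 6.0 at 0.026 U and 2.4 at 0.67 U, and values under the titles are given beside them. By description the total signal of mouse 9 was 177642 units at 0.026 U and 70313 at 0.67 U. In mice 7 and 10 the order was the reverse, with 37604 and 36325 units at 0.026 U and 83451 and 168514 at 0.67 U. Which labels are right was not tested.

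In fresh liver RNA treated with DNase both arms gave a signal in every mouse. The 5p arm measured 27.0, 49.5 and 64.5 units in mice 7, 9 and 10. The 3p arm measured 8.47, 12.5 and 21.8 units in the same mice. Both arms were lowest in mouse 7 and highest in mouse 10, in the same order as the total signal of these arrays, which was 55237, 92287 and 109374 units. Since different probes differ in brightness, the level of an arm was compared only with its own level elsewhere.

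**Figure D1:**
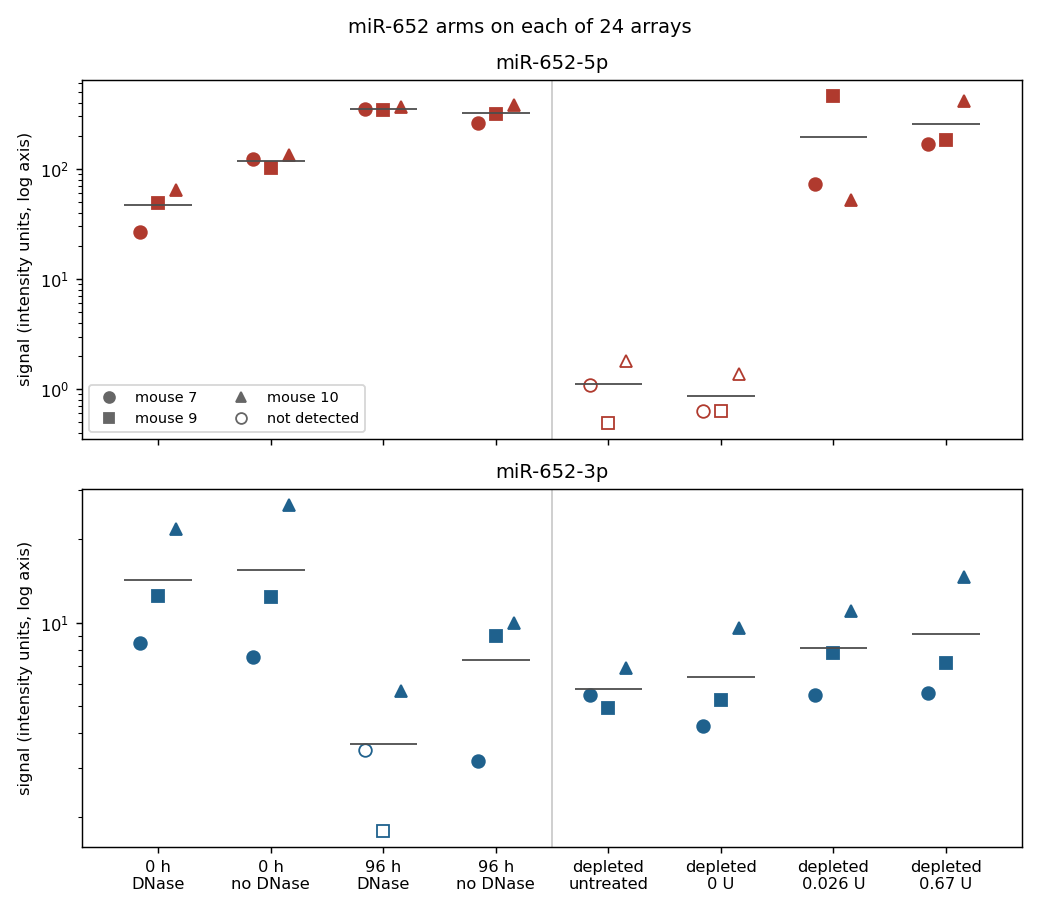
Signal of miR-652-5p (top) and miR-652-3p (bottom) on each of 24 arrays, in intensity units on log axes that differ between the panels. Columns are the 8 groups, symbols are the 3 mice, open symbols are arrays on which the arm was not detected, and lines are group means. The 5p arm lay between 0.496 and 1.78 units on the 6 depleted arrays without RNase and between 52.4 and 458 units on the 6 arrays with it, whereas the 3p arm was detected on all 12 of those arrays.

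After 96 h of storage the arms differed from fresh RNA in opposite directions on the measured scale. The 5p arm measured 351, 340 and 369 units at 96 h with DNase in mice 7, 9 and 10, so that every stored array was above every fresh one. The 3p arm measured 3.49, 1.78 and 5.69 units and was detected only in mouse 10, and every stored array was below every fresh one. Of the 631 kept miRNAs 76.9% had all stored arrays above all fresh arrays with DNase and 12.4% had them all below, so either direction by itself was common. The mean signal of the 5p arm was 354 ± 14.9 units (SD, n = 3) after storage against 47.0 ± 18.9 units (SD, n = 3) before it. For the 3p arm these means were 3.65 ± 1.96 units (SD, n = 3) and 14.2 ± 6.84 units (SD, n = 3).

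After vsn the change with storage in DNase-treated RNA was 1.16 ± 0.59 glog2 (SD of 3 mice) for the 5p arm and -3.35 ± 0.77 glog2 (SD of 3 mice) for the 3p arm. All 3 mice had the 5p arm higher and the 3p arm lower. Over all 631 kept miRNAs the median was 2.47 glog2, so the 5p arm gained less than the median kept miRNA. Of the kept miRNAs 39.8% lay below the 5p arm. Some miRNAs were kept only through their detection in degraded RNA, so this median does not describe the array as a whole. The sign of the 5p change turned under 4 of the other scalings (-0.60 to -0.29), while the 3p change was negative under all of them. The arms parted by 4.51 ± 0.32 glog2 (SD of 3 mice), with 4.55, 4.81 and 4.17 in mice 7, 9 and 10. In mice 7 and 9 this difference rests on a 3p value below detection at 96 h, and in mouse 10 both arms were detected before and after storage.

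Without DNase the same storage gave a 5p signal of 260, 313 and 385 units against 122, 101 and 133 units at 0 h. All stored arrays were again above all fresh ones, as they were for 77.0% of the kept miRNAs. The 3p arm measured 3.18, 8.94 and 10.0 units against 7.52, 12.4 and 26.6 units at 0 h. It was detected on all 6 of these arrays and was lower after storage within each mouse, although the groups overlapped. On the normalized scale the changes were -0.27 ± 0.31 glog2 (SD of 3 mice) for the 5p arm and -2.52 ± 0.58 glog2 (SD of 3 mice) for the 3p arm, with a median of 2.16 over the kept miRNAs. The negative mean of the 5p arm was within its spread and was positive with spike-in scaling (1.01) and without normalization (1.42). Under the other scalings it was negative, between -1.96 and -0.32. The arms parted by 2.25 ± 0.46 glog2 (SD of 3 mice).

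Well-known miRNAs expressed in liver were lower after storage too. In DNase-treated RNA the difference was -3.08 ± 0.74 glog2 (SD of 3 mice) for mmu-miR-122-5p, the most abundant miRNA of hepatocytes. For mmu-miR-192-5p it was -2.68 ± 0.57, for mmu-miR-21a-5p it was -2.71 ± 0.80 and for mmu-let-7a-5p it was -4.72 ± 1.71. The value of the 3p arm lay inside the range set by these 4. For mmu-miR-494-3p, which was listed as a signal raised by RNase, the difference was 2.47 ± 0.82 glog2 (SD of 3 mice).

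Depletion of small RNAs separated the arms in the other direction. The 5p arm measured 1.08, 0.496 and 1.78 units in untreated depleted RNA and was not detected on any of these 3 arrays, with 0 of its 30 spots above background. The 3p arm measured 5.48, 4.95 and 6.89 units and was detected on all 3, through a single probe. Both arms lay below every 0 h array with small RNAs and DNase, as 36.1% of the kept miRNAs did. The change was -4.52 ± 0.67 glog2 (SD of 3 mice) for the 5p arm and -1.01 ± 0.50 glog2 (SD of 3 mice) for the 3p arm, against a median of -0.17. For the 5p arm only a bound can be given: it was at least 20.7-fold lower on the glog2 scale, from the 0 h mean glog2 against the mean, over the depleted arrays, of the lowest detected glog2 value or the arm's own where that was higher. This scale compresses differences between dim signals.

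The smaller difference of the 3p arm depended on the scaling. Its change was -1.01 glog2 as reported, 0.06 after quantile normalization and 1.04 when arrays were scaled to the 75th percentile of the miRNAs detected on all of them. The 5p arm was lower under every scaling. Between the arms the difference was -3.50 ± 0.52 glog2 (SD of 3 mice), with the 5p arm below detection after depletion. As a share of the total signal of detected miRNAs, the 3p arm was 0.0135% to 0.0199% in fresh DNase-treated RNA and 0.0596% to 0.0716% in untreated depleted RNA, where the total itself was far lower. The reference miRNAs differed among themselves: mmu-miR-122-5p differed by -1.79 ± 0.41, mmu-let-7a-5p by -1.56 ± 0.50, mmu-miR-192-5p by -4.89 ± 0.60 and mmu-miR-21a-5p by -6.98 ± 0.62 glog2 (SD of 3 mice).

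With RNase a 5p signal was measured in depleted RNA that without the enzyme held none above background. At 0 U it measured 0.625, 0.630 and 1.36 units in mice 7, 9 and 10 and was detected in none. At 0.026 U it measured 72.3, 458 and 52.4 units, and at 0.67 U 169, 182 and 418 units. It was detected on all 6 RNase arrays with all 30 spots above background, and each was above every 0 U array, as was the case for 38.4% of the kept miRNAs. The mean over both doses was at least 76.6-fold higher than at 0 U by the same kind of bound, and the difference from the undetected 0 U values was 6.31 ± 0.79 glog2 (SD of 3 mice) against a median of 0.69 over the kept miRNAs.

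The 3p arm lay near its 0 U level with RNase. At 0 U it measured 4.26, 5.29 and 9.62 units, at 0.026 U 5.50, 7.77 and 11.0 units and at 0.67 U 5.58, 7.17 and 14.6 units. The groups overlapped, with mouse 10 the highest at every dose. Its change was -0.03 ± 0.21 glog2 (SD of 3 mice), and between -1.43 and 0.42 under other scalings. The arms parted by 6.34 ± 0.87 glog2 (SD of 3 mice), a value that rests on 5p signals below detection at 0 U. In the same comparison mmu-miR-494-3p differed by 6.62 ± 0.95 glog2, while the other 4 miRNAs named above differed by 0.05 to 0.18. The large value of mmu-miR-494-3p follows from its choice as a signal raised by RNase, made with earlier results of these data known.

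**Figure D2:**
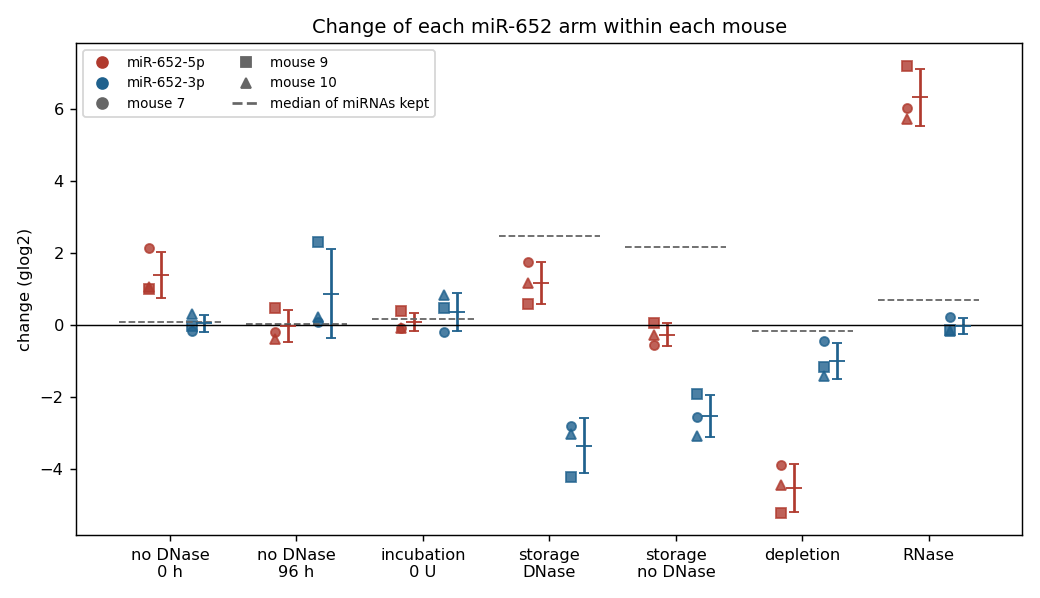
Change of miR-652-5p (red) and miR-652-3p (blue) in glog2 in 7 comparisons, by mouse (symbols) with the mean and SD of the 3 mice beside them and the median of the 631 kept miRNAs as a dashed line. The arms lie apart with storage (1.16 and -3.35 with DNase), depletion (-4.52 and -1.01) and RNase (6.31 and -0.03).

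The size of the dose difference for the 5p arm depended on the mouse and on the labels of mouse 9, and its mean was higher at 0.67 U under both labellings. With its arrays assigned by description, the mean signal was 194 ± 229 units (SD, n = 3) at 0.026 U and 256 ± 140 units (SD, n = 3) at 0.67 U, and the groups overlapped. Assigned by title, these means were 102 ± 69.8 units and 348 ± 157 units (SD, n = 3 each), with the highest array of the lower dose at 182 units and the lowest of the higher dose at 169 units. The 5p arm was higher at 0.67 U in 2 of 3 mice by description and in 3 of 3 by title. In glog2 the difference was 0.85 ± 1.41 (SD of 3 mice) by description and 1.27 ± 0.80 (SD of 3 mice) by title. By description it was 1.59 without mouse 9 and 0.18 without mouse 10. The total signal of detected miRNAs was also highest, 177642 units, on the mouse 9 array at 458 units and lowest, 36325 units, on the mouse 10 array at 52.4 units. As a share of that total the 5p arm was 0.144% to 0.258% at 0.026 U and 0.202% to 0.259% at 0.67 U. The part of the total signal in the dose difference was not tested.

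**Figure D3:**
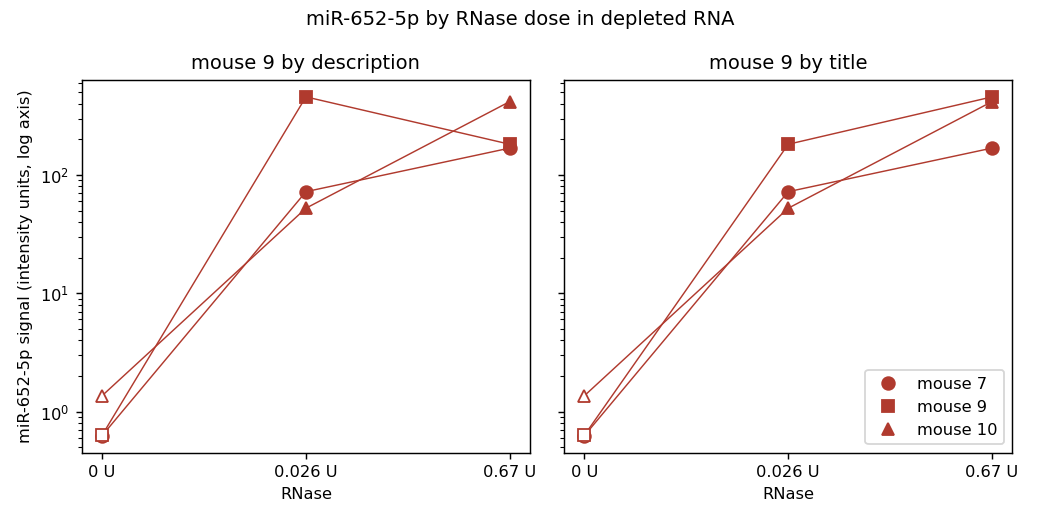
Signal of miR-652-5p in depleted RNA by RNase dose, in intensity units on a log axis, with a line for each mouse and open symbols where it was not detected (mice 7 and 9 nearly coincide at 0 U). The left panel assigns the arrays of mouse 9 by description and the right by title. Only the mouse 9 points at 182 and 458 units change places.

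DNase omission and the mock incubation were not named in the choice of the arms and were tested. They share groups with the comparisons that were named, so their p-values are not fully free of that choice. A miRNA was called at a limma adjusted p under 0.05 and a change of at least 1 glog2. In fresh RNA the 5p arm was higher without DNase in all 3 mice, and the groups did not overlap, which held in this direction for 6.34% of the kept miRNAs. The change was 1.39 ± 0.46 glog2 (SE; 95% interval 0.44 to 2.34), with a limma p of 0.0065 before adjustment and an adjusted p of 0.478. It therefore missed the threshold. The change was 0.76 (limma adjusted p = 1) with quantile normalization and 0.58 (limma adjusted p = 0.110) with normexp background correction, and the adjusted p ranged from 0.103 to 1 over all alternatives. In this comparison limma called 0% of 631 miRNAs, and 30 had an unadjusted p under 0.05. The arrays without DNase also had the higher total signal, 131979 to 163493 units against 55237 to 109374, and the part of this difference in the 5p value was not tested.

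The 3p arm differed by 0.04 ± 0.50 glog2 (SE; 95% interval -1.0 to 1.08; limma adjusted p = 0.991) on omission of DNase in fresh RNA. After 96 h, where 10.8% of miRNAs were called, neither arm was. The 5p arm differed by -0.03 ± 0.46 glog2 (SE; 95% interval -0.99 to 0.92; limma adjusted p = 0.960). For the 3p arm the difference was 0.87 ± 0.50 glog2 (SE; 95% interval -0.17 to 1.91; limma adjusted p = 0.326), and it was 0.16 without mouse 9. Whether the DNase effect itself differed between 96 h and 0 h was tested after the values were seen. The difference was -1.42 ± 0.65 glog2 (SE; limma adjusted p = 0.316) for the 5p arm and 0.83 ± 0.70 glog2 (SE; limma adjusted p = 0.679) for the 3p arm, in a test that called 1.11% of miRNAs.

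Incubation at 0 U against untreated depleted RNA called 1.74% of miRNAs and neither arm. The 5p arm was below detection in both groups, so no fold is given, and its glog2 means were 1.44 ± 0.31 and 1.37 ± 0.48 (SD, n = 3 each). The 3p arm differed by 0.36 ± 0.50 glog2 (SE; 95% interval -0.68 to 1.40; limma adjusted p = 0.992).

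Across groups the order of mean signals differed between the arms. For the 5p arm it ran from 354 units at 96 h with DNase through 319 at 96 h without DNase, 256 at 0.67 U, 194 at 0.026 U, 119 at 0 h without DNase and 47.0 at 0 h with DNase to 1.12 in untreated depleted RNA and 0.871 at 0 U. Only the steps from 0 h without DNase to 0 h with DNase, and from there to untreated depleted RNA, separated neighbours without overlap. For the 3p arm it ran from 15.5 units at 0 h without DNase through 14.2 at 0 h with DNase, 9.11 at 0.67 U, 8.09 at 0.026 U, 7.37 at 96 h without DNase, 6.39 at 0 U and 5.77 in untreated depleted RNA to 3.65 at 96 h with DNase. Every neighbouring pair of groups in that order overlapped.

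The probes of each arm were read separately. In the 5p arm the probes gave nearly equal signals, and the brighter of them held 52.4% to 53.9% of the sum on the 18 arrays where both exceeded 1 unit. The 3p probes were unequal, and the brighter held 77.1% to 78.8% of the sum in fresh DNase-treated RNA, 80.9% to 89.2% at 0 U and 54.5% to 63.5% at 96 h without DNase. At 96 h with DNase it held 56.7% to 86.2%. The dimmer 3p probe measured 1.79 to 4.99 units in fresh DNase-treated RNA. Without DNase it measured 2.58, 4.06 and 3.65 units at 96 h in mice 7, 9 and 10, against 1.74, 2.46 and 5.92 units at 0 h. It was thus higher after storage in mice 7 and 9. The brighter probe was lower in each mouse, at 3.18, 4.88 and 6.35 units against 7.52, 9.9 and 20.6 units. The 3p probes therefore did not change alike with storage without DNase. For a detected miRNA the scanner software counts a probe in the total only when that probe is detected. The 3p total rested on a single probe on all 3 untreated depleted arrays and on 2 of 3 arrays at each RNase dose and at 0 U. It also did so on 1 of 3 arrays at 0 h without DNase and in each 96 h group. At 96 h with DNase this was mouse 10, at 5.69 units against 6.6 for both probes. Without DNase it was mouse 7, at 3.18 units against 5.76. The 3p changes with storage and depletion thus mix totals of a single probe and of both.

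Arms of other hairpins also parted. Among 723 hairpins with both arms on the array, 87 had both arms kept. With storage in DNase-treated RNA the 5p minus 3p difference of the other 86 had a median size of 3.50 glog2, beside the 4.51 of miR-652. By direction, in 7 of the 87 an arm was higher by at least 1 while the other was lower by at least 1, and the 5p arm was the higher arm in 2, miR-652 and miR-677 (1.22 and -2.13). The other 5 were miR-125a, miR-139, miR-195a, miR-7241 and miR-99b, in which the 3p arm was higher after storage. For miR-125a the changes were -3.55 and 6.06 glog2 for the 5p and 3p arm. Both arms were higher by at least 1 in 25 hairpins and lower by at least 1 in 14. MiR-652 was among the 7 hairpins with opposed arms through a 5p change of 1.16. This change was 0.86 without mouse 7 and 0.28 with scaling to the 75th percentile of commonly detected miRNAs. It was below 0 under the 4 scalings given above. Under each of these settings it was below 1, so miR-652 was not among the opposed hairpins. The number of hairpins with opposed arms ranged from 1 to 37 under other scalings.

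**Figure D4:**
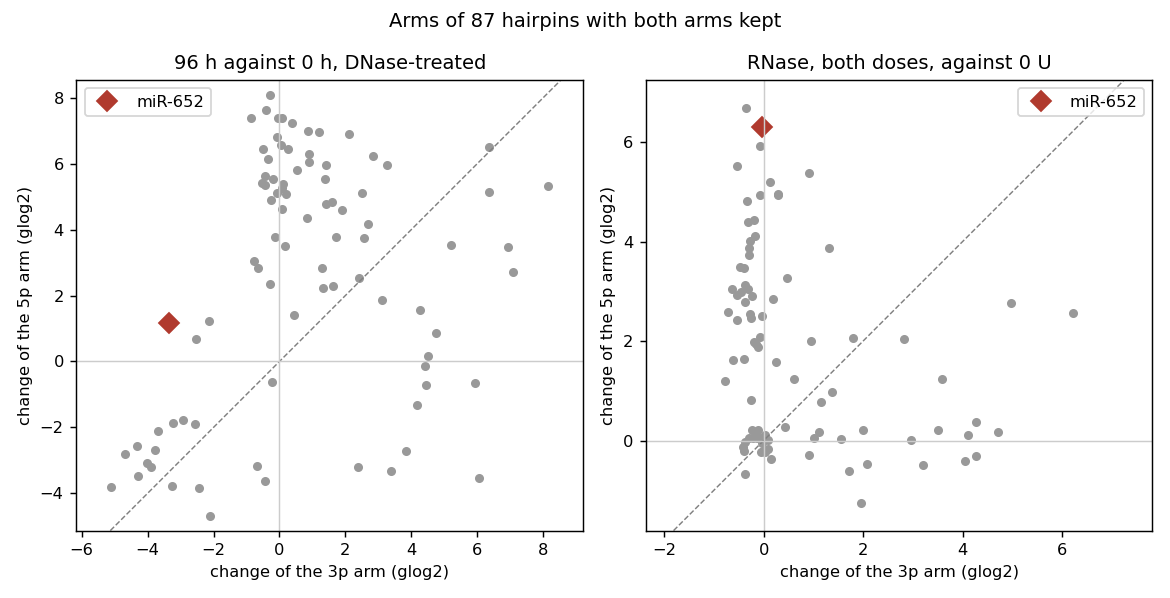
Change of the 5p arm against that of the 3p arm in glog2 for 87 hairpins with both arms kept, after storage (left, 96 h against 0 h with DNase) and after RNase (right, both doses against 0 U). Each grey point is a hairpin, miR-652 is the red diamond, and equal changes lie on the dashed line. With storage miR-652 stands at 1.16 and -3.35, and with RNase at 6.31 and -0.03.

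The hairpins with the nearest 5p minus 3p difference in storage were miR-290a (4.53), miR-7046 (4.55) and miR-7045 (4.79). Their arms did not oppose each other, since the differences of their 3p arms were 0.09, 1.42 and 2.11 glog2 and those of their 5p arms 4.62, 5.97 and 6.91. With RNase the median size of the difference over the other 86 hairpins was 2.44 glog2, and the nearest to the 6.34 of miR-652 were miR-7687 (6.06), miR-6973a (5.99) and miR-3547 (7.04). The miR-652 value was set against undetected 5p signals, so no rank is given. In all 3 hairpins the 3p arm differed by -0.54 to -0.07 glog2. These 3p arms were detected on 23, 7 and 6 of 24 arrays, so those of miR-6973a and miR-3547 were undetected on most arrays.

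The arms followed different miRNAs across the 24 arrays, which share mice and slides, so correlations are given as a description. Nearest to the 5p arm in glog2 were mmu-miR-7686-3p (Pearson r = 0.897), mmu-miR-712-5p (0.864), mmu-miR-6368 (0.851), mmu-miR-7671-3p (0.838) and mmu-miR-6370 (0.838). With RNase these 5 differed by 2.76 to 6.22 glog2, and with storage in DNase-treated RNA by 0.70 to 3.77. The first of them, mmu-miR-7686-3p, was detected on only 6 arrays. Nearest to the 3p arm were mmu-let-7e-5p (0.960), mmu-miR-92a-3p (0.953), mmu-miR-125a-5p (0.945), mmu-let-7c-5p (0.939) and mmu-let-7a-5p (0.936). These belong to long-known, widely expressed families, and they differed by -5.56 to -1.98 glog2 with storage and by at most 0.14 with RNase. Both lists were picked by correlation over these same arrays, storage and RNase arrays included. Changes like those of the arm thus follow from that choice and are no separate evidence about either arm. The arms themselves correlated at r = -0.114.

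The run of G in the 5p arm printed above was also set against the other kept miRNAs. Of 526 kept miRNAs with a RefSeq mature sequence, 23 (4.37%) held GGGGG on the mature strand, the 5p arm among them. With RNase the median change of these 23 was 2.91 glog2 and that of the other 503 was 0.51, and with storage in DNase-treated RNA the medians were 4.84 and 2.28. With DNase omission in fresh RNA they were 0.01 and 0.09. The 5p arm itself changed by 6.31, 1.16 and 1.39 glog2 in these comparisons. Its storage value thus lay below both medians, and its other values lay above both. The kept set includes miRNAs detected only in degraded RNA, and the sequence match is a description of these letters alone. In GC content the 5p arm (62.5%) exceeded 63.3% of the 526 and the 3p arm (57.1%) exceeded 45.6%.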

How the data were processed

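Liver RNA of 3 mice was hybridized to 24 Agilent mouse miRNA arrays (one-colour), 3 in each of 8 groups taken from the labels, and each mouse had 1 slide and 1 scan. Per the file headers, the authors extracted spots with Agilent Feature Extraction 10.10.1.1, and deposited background-subtracted fluorescence intensity with detection flags, not normalized between arrays. The deposited table of all arrays holds log2-scale values that the authors normalized by vsn. Here vsn was rewritten in Python 3.11.15 (7 rounds, 90% of miRNAs kept in each of 5 slices) and run on total gene signals, or on summed probe signals where a miRNA was not detected. MiRNAs detected on at least 5 arrays were kept (631). A single limma 3.58.1 fit (R 4.3.3) held the 8 group means, with Benjamini-Hochberg adjustment over the kept miRNAs, two-sided. The exact rank test that the methods name cannot go below p = 0.1 with 3 arrays a group. The scripts were tested on simulated data. The miRNAs and hairpins named were set by rule: the arms, the 5 most correlated miRNAs of each, the 3 hairpins nearest in arm difference, hairpins with opposed arms (chosen after the values were seen) and 5 reference miRNAs. Members and lists were chosen with earlier results of these data known. The number of arrays limits the precision. The same-mouse correlation of deviations from the group means averaged 0.0914. Hairpins were folded with RNAfold 2.7.2, and figures were drawn with matplotlib 3.10.9.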

Additional observations from a re-analysis of the deposited data

How the results depend on the processing

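No test of an arm passed its threshold under any setting. With a replicate block for the mouse, since same-numbered arrays are of 1 animal, no call changed: for DNase omission the 5p arm gave 1.39 (limma adjusted p = 0.447) at 0 h and the 3p arm 0.87 (limma adjusted p = 0.110) at 96 h. The exact rank test gave p = 0.1 for the 5p arm at 0 h, the smallest it can give. Uncalled changes near 0 turned sign. For the 3p arm with DNase omission at 0 h the value was -0.11 with the common percentile (arrays scaled to the 75th percentile of the miRNAs that all arrays detected), -0.11 with quantile normalization, -0.05 with filtered vsn (normalized over the kept miRNAs alone), -0.02 with normexp and -0.09 to 0.14 with a mouse left out. For the 5p arm at 96 h these settings gave 0.30, 0.30, 0.19 and 0.18, and -0.29 to 0.14 with a mouse left out. Incubation at 0 U gave -0.25, -0.40 and -0.01 for the 5p arm with the first 3 of these, -0.17 without normalization, -0.26 with spike-in scaling and -0.08 to 0.15 with a mouse left out, and -0.06 for the 3p arm with spike-in scaling.

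The described changes with storage, depletion and RNase depended on the scaling, and the cause was not tested. For 0.67 U against 0.026 U the 5p difference was 0.33 to 0.96 over the scalings and 0.18 to 1.59 with a mouse left out. For storage with DNase the 5p change was 0.28 with the common percentile, -0.38 with the full percentile (the 75th over all miRNAs), -0.59 with quantile normalization, 3.00 without normalization, -0.60 with filtered vsn, 2.52 with spike-in scaling and -0.29 with normexp. The 3p change was -4.40 with the full percentile, -2.01 without normalization, -4.89 with filtered vsn, -2.07 with spike-in scaling and -0.89 with normexp. The arms parted by 3.94 and 4.01 with the common and the full percentile, 3.39 with quantile normalization, 5.01 without normalization and 0.60 with normexp. For storage without DNase the 5p change was -0.68 and -1.96 with the common and the full percentile, -1.04 with quantile normalization, 1.42 without normalization, -1.71 with filtered vsn, 1.01 with spike-in scaling and -0.70 with normexp. The 3p change was -4.13 with the full percentile, -3.55 with quantile normalization, -1.04 without normalization, -4.22 with filtered vsn, -1.28 with spike-in scaling and -0.80 with normexp, under which the arms parted by 0.10. For depletion the 5p change was -3.24 and -5.31 with the common and the full percentile and -1.67 with normexp. The 3p change was 1.04 with the common percentile, 0.06 with quantile normalization and 0.00 with normexp. The arms parted by -4.28 and -4.27 with the common and the full percentile, -4.93 with quantile normalization and -1.67 with normexp. For RNase the 5p change was 7.18 with quantile normalization, 7.24 without normalization, 5.23 with filtered vsn and 3.15 with normexp. The 3p change was -1.32 and -0.88 with the common and the full percentile, -1.43 with quantile normalization, 0.42 without normalization, -1.0 with filtered vsn, 0.25 with spike-in scaling and -0.46 with normexp. The arms parted by 7.27 with each percentile, 8.61 with quantile normalization and 3.62 with normexp. Normexp adds an offset of 50 units to every spot and is followed by quantile normalization. Mean spot signals of the brighter 3p probe were 31.5 to 80.1 units in fresh DNase-treated RNA. At 96 h with DNase they were 4.87 to 19.1 units. An offset of that size shrinks the changes of such dim spots by construction. Hairpins with both arms kept numbered 723 with no filter, and opposed arms in storage numbered 12, 28, 23, 37 and 1 with the common and the full percentile, quantile normalization, filtered vsn and normexp.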
